A study of Mus musculus with 14 samples.

Results

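Netrins, netrin-G proteins and netrin receptors were examined in RNA sequencing (RNA-seq) profiles of freshly isolated mouse cerebellar granule neuron progenitors (GNPs), which divide in the external granule layer and mature into granule neurons. The genes were listed by name and matched to the deposited table by symbol. They are Ntn1, Ntn4, Ntng1, Ntng2, Dcc, Neo1, Unc5a, Unc5b, Unc5c and Unc5d, 10 of the 41381 genes in the table. The comparison asked which genes change in GNPs when Chd7, an ATP-dependent chromatin remodeller, is lost. Of the 14 libraries, 5 were labelled WT, 5 Het and 4 Hom, all from cerebella at postnatal day 7 (P7). WT 1 to 3 are labelled wild type for Chd7, and WT 4 and 5 negative for Atoh1-Cre. Het mice were Atoh1-Cre::Chd7 f/+ and Hom mice Atoh1-Cre::Chd7 f/f, so that Cre under Atoh1 control, active in the granule lineage, removes 1 copy or both. The study gives the WT genotype as Chd7 f/f and names no Cre there. Against WT, effects of Atoh1-Cre itself and of Chd7 loss therefore cannot be told apart. The study notes that some Chd7 protein persists in the posterior lobe under this driver. The labels name the strain as C56Bl6/J for WT 1 to 3, Het 1 and 2 and Hom 1 and 2, and as C57BL/6 for the others. Per the study's methods WT 1 to 3, Het 1 to 3 and Hom 1 and 2 were sequenced as batch 1 and the other 6 libraries as batch 2, so that strain label and batch differ only for Het 3.

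Netrins are secreted, laminin-related guidance cues. Ntn1 attracts growing axons and migrating neurons through DCC and neogenin and repels them through the UNC5 receptors, alone or together with DCC. In the developing cerebellum the UNC5 receptor encoded by Unc5c, also known from the rostral cerebellar malformation mouse, keeps granule cell precursors within the boundaries of the cerebellum. Netrin-G proteins are tethered to the membrane, do not bind the classical netrin receptors, and pair with netrin-G ligands of the Lrrc4 family at synapses.

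Expression is given as TPM, a gene's share of all transcripts of a library after scaling to transcript length, with the same total in every library, so levels can be set side by side between genes. Between 15863 and 16734 genes reached 1 TPM in a library. TPM keeps no record of the reads behind a value, so the depth of each library is unknown. Log2 changes are differences of log2(TPM + 1) from a limma fit with genotype and batch as terms, a scale on which changes of genes near 0 TPM come out too small. Genes with a limma p under 0.05 after adjustment over the 17325 genes tested are termed called. All 10 genes passed the filter for testing, which asked for 1 TPM or more in 4 libraries or more. The labels do not say whether libraries came from separate mice, so the p-values measure the spread between these libraries.

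The labels were checked against Chd7 and against cell type markers. Chd7 TPM was 120.81 to 272.06 in WT, 136.77 to 181.3 in Het and 125.63 to 185.39 in Hom. In batch 1 it was higher in the libraries labelled Hom (log2 change 0.41), against the direction of the label, and in batch 2 it was lower (-0.77). Gene-level TPM covers all exons, and the deleted part alone was not analysed here. Directions below therefore rest on the labels, and WT, Het and Hom stand for the libraries so labelled. The 8 granule progenitor markers were present in every library, Atoh1 at 20.8 to 50.6 TPM and Zic1 at 739 to 1167 TPM. Of the 6 markers of differentiated granule neurons, Gabra6, which marks mature ones, did not exceed 1.03 TPM, Grin2c 4.89 TPM and Cbln3 2.93 TPM. The others were present throughout: Slc17a7 was at 8.76 to 35.01 TPM, Neurod2 at 72.96 to 178.54 TPM and Rbfox3 at 112.42 to 226.44 TPM. The 7 Purkinje cell markers summed to 146 to 191 TPM in WT 1 to 3 and to at most 89.3 TPM in each of the other 11 libraries, with Pcp2 at 0 in Het 5. The 8 endothelial and mural cell markers, none of them at 0 in any library, summed to 35.3 to 48.9 TPM in WT 1 to 3, 142 and 280 TPM in WT 5 and WT 4, 26.3 to 533 TPM in Het and 133 to 380 TPM in Hom. In these bulk samples, fewer cells of a type and less RNA per cell cannot be told apart.

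In WT GNPs the receptors neogenin, Unc5c and Dcc were the most abundant of these genes, followed by the secreted netrins. Neo1, which encodes neogenin, stood at 178 ± 28.3 TPM (SD, n = 5), Unc5c at 114 ± 18.7 TPM and Dcc at 93.4 ± 16.6 TPM. The ranges of Unc5c and Dcc overlapped between libraries, but Unc5c was above Dcc in 5 of 5 WT libraries. Ntn4 (64.0 ± 3.81 TPM), Ntn1 (48.6 ± 3.55 TPM) and Unc5b (43.7 ± 10.6 TPM) came next, and the ranges of Ntn1 and Unc5b overlapped. The lowest were Ntng2 (7.62 ± 0.980 TPM), Unc5a (5.12 ± 0.803 TPM), Ntng1 (3.04 ± 0.190 TPM) and Unc5d (1.61 ± 0.480 TPM), whose ranges did not overlap between neighbours in this order. In Hom the order by mean level was a different one. Dcc (120 ± 7.52 TPM, n = 4) stood above Unc5c (67.9 ± 17.6 TPM) with no overlap. Ntn1 (66.9 ± 10.9 TPM) stood above Ntn4 (54.5 ± 6.72 TPM) and Unc5d (3.88 ± 1.73 TPM) above Ntng1 (2.87 ± 0.807 TPM), in both cases with overlapping ranges.

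**Figure D1:**
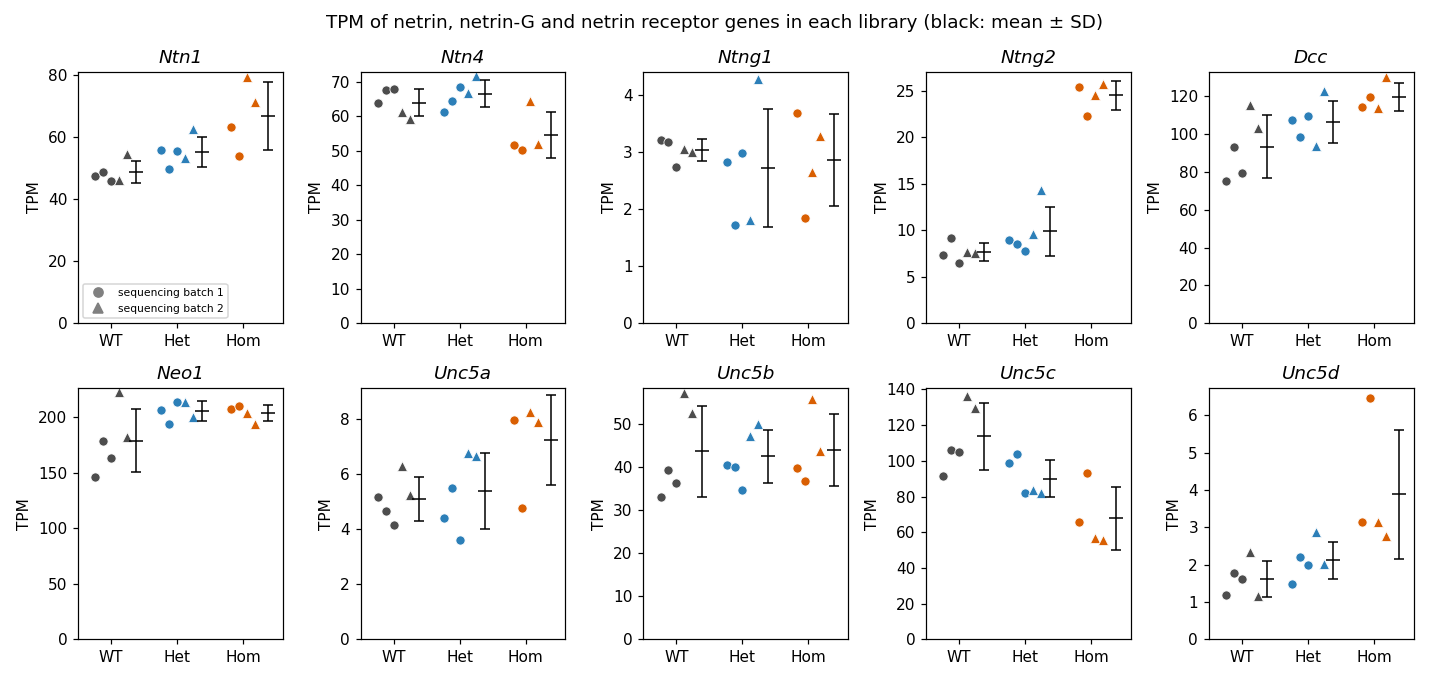
TPM of each of the 10 genes in every library by genotype (grey WT, blue Het, orange Hom; circles batch 1, triangles batch 2), with the mean and SD of each group in black and every axis from 0. Ntng2 lies at 22.32 to 25.77 TPM in Hom against 6.45 to 9.16 TPM in WT, and the Hom means of Ntn1 and Unc5d lie above, that of Unc5c below, those of WT.

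Between Hom and WT, Ntng2 and Ntn1 were higher and Unc5c was lower at an adjusted p under 0.05. Thus 2 of the 10 genes were called higher, beside 1.27% of all genes tested, and 1 was called lower, beside 1.41%. The median change of the 10 genes was 0.27 on the log2 scale, beside 0.024 over all genes tested, and their median absolute change was 0.36, beside 0.13. For 3 genes, Ntng2, Ntn1 and Unc5d, the Hom libraries of a batch all lay above the WT libraries of that batch, beside 5.44% of all genes tested. The corresponding pattern below WT was found for 0 of the 10, beside 3.56%.

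Ntng2 (ENSMUSG00000035513) encodes netrin-G2 and lies on GRCm38 chromosome 2, 29194541 to 29253005, minus strand, a span of 58.5 kb. Its TPM was 7.3, 9.16, 6.45, 7.63 and 7.57 in WT 1 to 5, and 9.0, 8.55, 7.8, 9.64 and 14.37 in Het 1 to 5. In Hom 1 to 4 it was 25.46, 22.32, 24.53 and 25.77. All 4 Hom libraries lay above all WT and Het libraries, and the lowest Hom value was far above the highest of the other groups. The Hom mean of 24.5 ± 1.56 TPM (SD, n = 4) was 3.22 times the WT mean. The log2 change was 1.55 (SE 0.14, limma adjusted p 5.04e-05), with nearly the same size in batch 1 (1.54) and batch 2 (1.60). Fitted on batch 2 alone it missed the threshold (adjusted p 0.0719). It was the gene ranked 12 by p among the 17325 tested.

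The reads behind Ntng2 are shared in part with another annotated gene. 6530402F18Rik, a processed transcript on the same strand, overlaps exons of Ntng2, and 420 of the 4247 stretches of 50 bases in Ntng2 transcripts (9.89%) also occur in it, so reads of 50 bases could be divided between the genes. Its TPM was 2.17 to 3.07 in WT, 2.92 to 4.73 in Het and 6.53 to 8.47 in Hom, a log2 change of 1.29 between Hom and WT (SE 0.14, limma adjusted p 1.64e-04). It thus moved in the same direction, and the ratio of Ntng2 to 6530402F18Rik was 2.69 to 3.52 in WT and 2.91 to 3.90 in Hom. This gene was chosen for its overlap with Ntng2 and is not an independent result.

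The other netrin-G gene did not show this pattern. Ntng1 TPM was 2.74 to 3.22 in WT, 1.72 to 4.28 in Het and 1.84 to 3.69 in Hom, so that the groups overlapped fully. The log2 change between Hom and WT was -0.094 with a 95% interval of -0.54 to 0.35 (limma adjusted p 0.888), and its sign turned in several alternative fits. Ntng2 stood at 2.27 to 2.88 times Ntng1 in WT, at 2.62 to 5.33 times in Het and at 6.90 to 12.1 times in Hom, a ratio that was not tested. The netrin-G ligands Lrrc4c and Lrrc4 and the related Lrrc4b, postsynaptic adhesion molecules, were not called in any comparison.

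The secreted netrins are Ntn1, which acts at a distance and on contact, and Ntn4, which also binds laminins of basement membranes. Ntn1 (ENSMUSG00000020902) lies on GRCm38 chromosome 11, 68209364 to 68400823, minus strand. Its TPM was 47.55, 48.75, 45.76, 46.27 and 54.59 in WT 1 to 5, and 55.7, 49.57, 55.44, 53.1 and 62.73 in Het 1 to 5. In Hom 1 to 4 it was 63.23, 53.75, 79.3 and 71.29. Hom 2 lay just below WT 5, which belongs to the other batch, and the other 3 Hom libraries lay above all WT libraries. The log2 change between Hom and WT was 0.42 (SE 0.086, limma adjusted p 0.0171), 0.29 in batch 1 and 0.57 in batch 2, or 1.38 times in group means. The call was lost without Hom 1 (adjusted p 0.0622) or Hom 4 (0.0543), with a log2 change of 0.42 in both cases, in a fit of WT and Hom alone (0.0633) and in each batch alone (0.216 and 0.208).

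Ntn4 went the other way without being called. Its TPM was 63.8, 67.74, 67.77, 61.16 and 59.34 in WT 1 to 5, and 61.29 to 71.67 in Het. In Hom 1 to 4 it was 51.56, 50.07, 64.51 and 51.87. Hom 1, 2 and 4 lay below every WT and Het library and Hom 3 lay among them. The log2 change was -0.24 between Hom and WT (95% interval -0.41 to -0.065, limma adjusted p 0.165) and -0.29 between Hom and Het (adjusted p 0.197). Without Hom 3 the changes were -0.32 (adjusted p 0.0289) and -0.37 (adjusted p 0.0425), so that 1 library decided this call. Ntn1 was below Ntn4 in all 5 WT libraries (ratio 0.675 to 0.920) and all 5 Het libraries (0.769 to 0.909), and above it in all 4 Hom libraries (1.07 to 1.37). These genes were set against each other with their levels known, and the ratio was not tested.

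**Figure D2:**
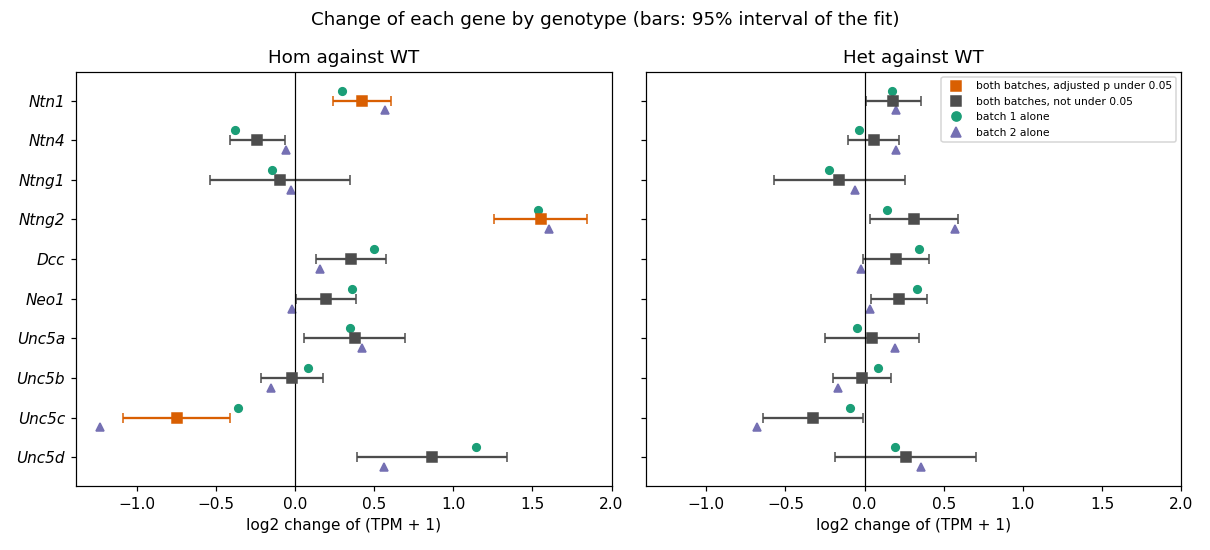
Log2 change of (TPM + 1) between Hom and WT (left) and Het and WT (right) for each gene, as squares with 95% intervals of the limma fit over both batches (orange: adjusted p under 0.05), and the change within batch 1 (circles) and batch 2 (triangles). Ntng2 has nearly equal changes in both batches, 1.54 and 1.60, whereas Unc5c ranges from -0.36 to -1.23; no gene is orange between Het and WT.

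Dcc and Neo1 encode the related receptors of the attractive response. Dcc spans 1097.4 kb on chromosome 18, the longest of the 10 genes. Its TPM was 75.4, 93.14, 79.63, 115.61 and 103.1 in WT 1 to 5, and 93.83 to 122.61 in Het. In Hom 1 to 4 it was 114.5, 119.84, 113.89 and 130.14. Hom 2 and Hom 4 lay above every WT library, and Hom 1 and Hom 3 lay above all but WT 4. The log2 change was 0.35 (95% interval 0.13 to 0.57, limma adjusted p 0.103), 0.50 in batch 1 and 0.16 in batch 2.

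Neo1, the most abundant of these genes in every group, encodes a receptor for netrins and for repulsive guidance molecules. Its TPM was 146 to 222.04 in WT, 194.02 to 213.65 in Het and 193.99 to 210.06 in Hom. All Het and Hom libraries lay inside the WT range, and the WT values of batch 1 were the lowest. The log2 change between Hom and WT was 0.19 (95% interval 0.0046 to 0.38, limma adjusted p 0.322), and it was 0.36 in batch 1 and -0.019 in batch 2.

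The UNC5 receptors mediate repulsion by netrins and carry a death domain. Unc5c (ENSMUSG00000059921) lies on GRCm38 chromosome 3, 141465216 to 141834924, plus strand, a span of 369.7 kb. The study's own text names this gene among those lower in these samples, so its direction is not independent evidence. Its TPM was 91.3, 106.33, 105.1, 136.42 and 129.8 in WT 1 to 5, and 98.71, 103.82, 82.05, 83.68 and 82.08 in Het 1 to 5. In Hom 1 to 4 it was 65.73, 93.41, 56.55 and 55.82. Hom 2 lay within the WT range of its own batch, and the other 3 Hom libraries lay below all WT and Het libraries.

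The log2 change of Unc5c between Hom and WT was -0.75 (SE 0.16, limma adjusted p 0.0206), and the Hom mean was 0.597 times the WT mean. The change was -0.36 in batch 1, where it missed the threshold (adjusted p 0.369), and -1.23 in batch 2 (adjusted p 0.0428). The difference between the batches was -0.87 (unadjusted limma p 0.00134, adjusted p 0.127 over all genes). For 0 of the 10 genes did the Hom change differ between batches after adjustment, beside 0.0115% of all genes tested. The Unc5c call was lost without WT 4, WT 5, Hom 1, Hom 3 or Hom 4, with log2 changes of -0.65, -0.67, -0.73, -0.68 and -0.67 (adjusted p 0.0532 to 0.0736), and in a fit of WT and Hom alone (adjusted p 0.0782). An antisense gene, Gm15688, overlaps Unc5c exons at a mean of 2.08 TPM. The study names no strand setting and ran Bowtie and RSEM with default parameters, so reads from the 2 strands may not have been separated. With both strands counted, 76 of the 19225 stretches of 50 bases in Unc5c transcripts (0.395%) also occur in other genes.

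The 3 other Unc5 genes were not lower in Hom. Unc5d, the least abundant in WT, was measured at a TPM of 1.19, 1.77, 1.61, 2.33 and 1.16 in WT 1 to 5 and 1.49 to 2.88 in Het. In Hom 1 to 4 the values were 3.14, 6.46, 3.15 and 2.78. All Hom libraries lay above all WT libraries, Hom 2 by far the most. The log2 change was 0.87 (95% interval 0.39 to 1.34, limma adjusted p 0.0569), 1.15 in batch 1 and 0.56 in batch 2. It was called without WT 4 (0.99, adjusted p 0.0454). With single libraries left out in turn, the change ran from 0.61 to 0.99.

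Unc5a TPM was 5.17, 4.66, 4.17, 6.32 and 5.26 in WT 1 to 5, 3.61 to 6.78 in Het, and 7.96, 4.79, 8.28 and 7.9 in Hom 1 to 4. Hom 1, 3 and 4 lay above all WT and Het libraries, and Hom 2 lay among them. The log2 change was 0.38 (95% interval 0.059 to 0.69, limma adjusted p 0.247), and 0.25 without Hom 1. Exons of Unc5a overlap those of Hk3 on the opposite strand, at a mean of 1.96 TPM. Of the 4256 stretches of 50 bases in Unc5a transcripts, however, 0 occur in transcripts of another gene on either strand. Unc5b, known from blood vessels as well as neurons, was at 32.98 to 57.17 TPM in WT, 34.77 to 50.09 in Het and 36.75 to 55.83 in Hom. Its groups overlapped throughout, the log2 change was -0.019 (95% interval -0.21 to 0.18, adjusted p 0.957), and its sign turned with the batch term left out.

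The makeup of the receptor group therefore differed between the libraries. Unc5c held 67.5% to 71.4% of the summed TPM of the 4 Unc5 genes in WT, 58.3% to 68.5% in Het and 45.7% to 66.1% in Hom. The sum itself was 131 to 202 TPM in WT, 122 to 152 TPM in Het and 110 to 141 TPM in Hom. The ratio of Dcc to Unc5c lay at 0.758 to 0.876 in WT, at 0.950 to 1.49 in Het and at 1.28 to 2.33 in Hom. Dcc was thus above Unc5c in 0 of 5 WT, 4 of 5 Het and 4 of 4 Hom libraries, and the WT range overlapped neither of the others. The ratio was formed after the levels had been seen, and no test was made on it.

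**Figure D3:**
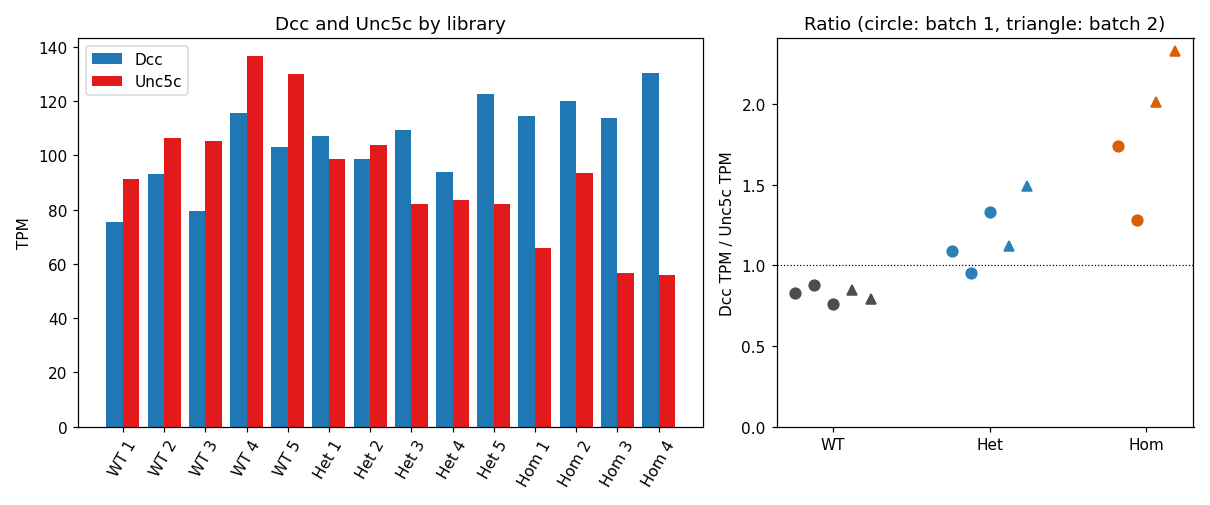
Left, bars of Dcc (blue) and Unc5c (red) TPM in each of the 14 libraries, from 0. Right, the ratio of Dcc to Unc5c TPM per library by genotype (circles batch 1, triangles batch 2, dotted line at equal levels); WT libraries lie at 0.758 to 0.876 and Hom libraries at 1.28 to 2.33.

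Het libraries were compared with the same WT libraries, so the Het and Hom changes are not independent. None of the 10 genes was called, beside 0.00577% of all genes tested called higher and 0% called lower by limma. At an unadjusted p under 0.05, 3 of the 10 were higher, beside 3.2% of all genes tested, and 1 was lower, beside 2.88%. These were Ntng2 (log2 change 0.31, p 0.0295), Neo1 (0.22, p 0.0215) and Ntn1 (0.18, p 0.0417), and Unc5c on the lower side (-0.33, p 0.0440), with limma adjusted p values of 0.706 to 0.812. For Ntng2 this leaned on Het 5, which at 14.37 TPM lay far above the other Het libraries. Without that library the Het change was 0.19. Dcc had a log2 change of 0.20 (95% interval -0.011 to 0.41), and the remaining genes had changes between -0.16 (Ntng1) and 0.26 (Unc5d), each with an interval that spanned 0. These limits rested on single libraries: the Ntng1 change was -0.060, -0.040 and -0.30 without Het 2, 4 and 5, and the Unc5d change was 0.16 without Het 4.

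Hom and Het libraries both carry Atoh1-Cre and were compared directly. Ntng2 was called higher (log2 change 1.24, SE 0.14, limma adjusted p 0.00106), as 1 of the 10 genes, beside 0.15% of all genes tested. None was called lower, beside 0.277%. Next by p came Ntn4 (-0.29, adjusted p 0.197), whose Hom libraries lay below the Het libraries within each batch. Ntn1 (0.24, adjusted p 0.517), Unc5d (0.61, adjusted p 0.541), Unc5c (-0.42, adjusted p 0.566) and Unc5a (0.33, adjusted p 0.788) followed, and none of these passed. Without Hom 2 the Unc5d change was 0.35.

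The study used a Kruskal-Wallis test over the 3 genotypes. An exact form of it, on values from which the batch term had been removed, gave p under 0.01 for Ntng2 (p 7.14e-04), Ntn1 (p 0.00440) and Unc5d (p 0.00578), 3 of the 10 genes with a higher mean in Hom, beside 2.42% of all genes tested. It did so for Unc5c (p 0.00757) with a lower mean, 1 of the 10, beside 2.21%. Dcc (exact p 0.0173) and Ntn4 (exact p 0.0270) did not reach that threshold. These p-values are unadjusted, and after Benjamini-Hochberg adjustment over all genes none of these genes passed 0.05, the lowest being 0.0538 for Ntng2.

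In batch 1 the endothelial and the Purkinje cell sums differed between WT and Hom, as given above, though Het 3 had the lowest endothelial sum (26.3 TPM). Not every list did so: the batch 1 means of the microglial sum were 112 TPM in WT and 110 TPM in Hom. Those of the meningeal sum were 119 and 113 TPM. All 8 endothelial and mural cell markers had a change above 0 between Hom and WT, with 0 of 8 called, and 1 of 6 Purkinje cell markers tested was called lower. The 7 astroglial markers, none at 0 in any library, summed to 211 to 863 TPM in WT, 317 to 547 TPM in Het and 175 to 394 TPM in Hom, with 0 of 7 above 0 between Hom and WT and 0 called. The 6 markers of differentiated granule neurons summed to 243 to 431 TPM in WT, 240 to 333 TPM in Het and 206 to 296 TPM in Hom. Of the 5 tested, only 1 had a change above 0 between Hom and WT, and 1 was called lower and 1 higher. The part of the astroglial, inhibitory interneuron, choroid plexus and differentiated granule neuron lists in the results was not tested. A further fit held the mean levels of the endothelial and mural cell list and of the Purkinje cell list as its only marker covariates. There the log2 changes between Hom and WT were 1.64 for Ntng2 (limma adjusted p 8.50e-04) and 0.47 for Ntn1 (adjusted p 0.0393). Unc5c changed by -1.11 (adjusted p 0.00143), and all 3 genes were still called. The changes of Ntn4 (-0.14), Neo1 (0.12) and Unc5b (-0.16) moved by more than 1.5 times, that of Dcc was 0.24, and these 4 genes were again not called. In the same fit Chd7 had a change of -0.63 (adjusted p 0.0736).

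Genes that act around netrins and their receptors were taken from a list of 35, of which 34 were found in the table and 33 tested. Between Hom and WT, 2 were called higher and 2 lower, again beside 1.27% and 1.41% of all genes, and their median change was 0.046. Draxin, a secreted protein that binds DCC and netrin, was at 125.05, 132.93, 137.28, 107.79 and 115.28 TPM in WT 1 to 5, at 115.31 to 196.65 TPM in Het, and at 236.99, 158.44, 279.74 and 279.08 TPM in Hom 1 to 4. All Hom libraries lay above all WT libraries (log2 change 0.90, SE 0.18, limma adjusted p 0.0168), with a change of 0.55 in batch 1 and 1.32 in batch 2. The call was lost without Hom 1 (0.87, adjusted p 0.0623) or Hom 4 (0.83, adjusted p 0.0622), and in each batch alone (0.294 and 0.114). It was also lost with replicate number as a block (limma adjusted p 0.0517). By the exact Kruskal-Wallis test Draxin did not reach the threshold of 0.01 (p 0.0168).

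Dapk1, a kinase that associates with the death domain of the UNC5B receptor, was at 37.85 to 42.78 TPM in WT, 43.0 to 56.6 in Het, and 61.06, 62.05, 68.73 and 63.23 in Hom 1 to 4. The 3 groups did not overlap. The log2 change between Hom and WT was 0.63 (SE 0.078, limma adjusted p 6.26e-04) and was alike in both batches (0.64 and 0.62), though not called in batch 2 alone (adjusted p 0.208), and that between Het and WT was 0.25 (adjusted p 0.544).

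Flrt3, a membrane ligand of UNC5 receptors and latrophilins, was at 18.93 to 35.95 TPM in WT, 16.73 to 21.93 in Het and 12.02 to 17.52 in Hom. All Hom libraries lay below all WT libraries (log2 change -0.70, SE 0.16, limma adjusted p 0.0353), with -0.33 in batch 1 and -1.15 in batch 2. Leaving out single libraries ended this call in 7 of 14 cases, those without WT 2, 3, 4 or 5 or Hom 1, 3 or 4 (changes -0.75 to -0.54). It was also lost without the filter on low values (adjusted p 0.0543), with the replicate block (0.201), in a fit of WT and Hom alone (0.109) and in each batch alone (0.349 and 0.136). Tubb3, the neuronal tubulin that binds DCC and UNC5C, was at 547.62 to 750.85 TPM in WT, 527.93 to 707.34 in Het and 401.85 to 623.05 in Hom (log2 change -0.38, SE 0.071, limma adjusted p 0.0111). Tubb3 was higher in batch 2 in every group, and its call was lost without the batch term (-0.34, adjusted p 0.281), with marker covariates (adjusted p 0.0977), in a fit of WT and Hom alone (0.0642) and in each batch alone (0.0615 and 0.312). It was also lower in Hom than in Het (-0.37, adjusted p 0.0438). Between Het and WT 0 of the 33 were called, and the other 29 were not called between Hom and WT.

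**Figure D4:**
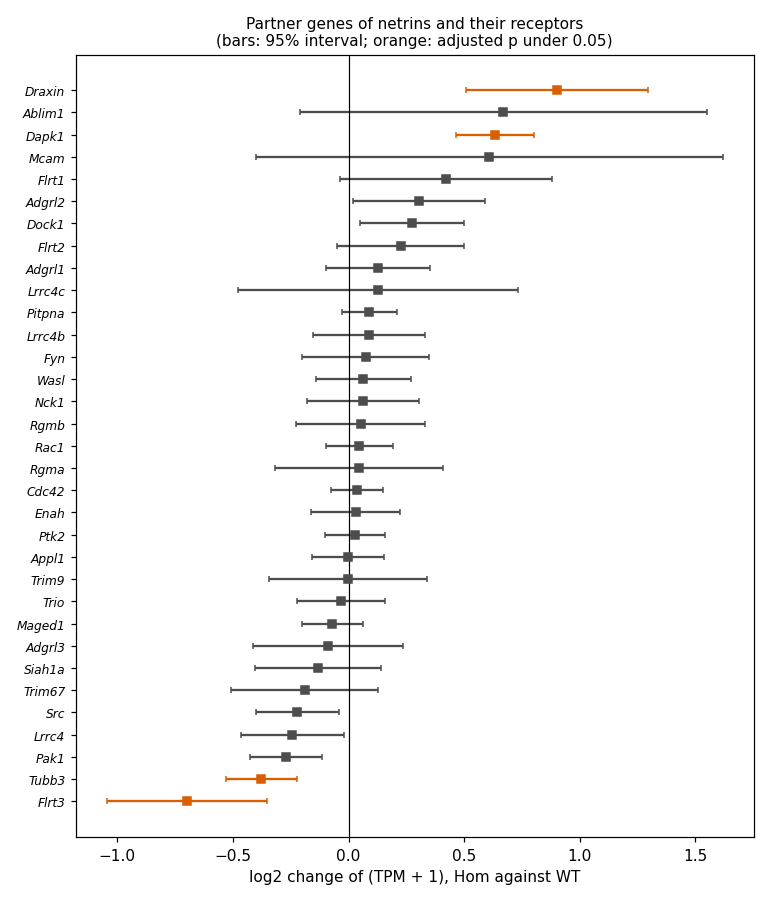
Log2 change of (TPM + 1) between Hom and WT for the 33 tested partner genes of netrins and their receptors, with 95% intervals of the limma fit, ordered by change (orange: adjusted p under 0.05). Draxin (0.90) and Dapk1 (0.63) lie above 0 and Tubb3 (-0.38) and Flrt3 (-0.70) below; most others have intervals that include 0.

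The genes whose levels followed those of the called genes most closely were found by Pearson correlation of log2(TPM + 1) over the 14 libraries after removal of the batch term, among 12300 genes with a mean TPM of at least 5. For Ntng2 they were Slit1 (r 0.967), Prmt8 (0.959) and Antxr1 (0.957). For Unc5c they were Cacna2d1 (0.968), B3galt2 (0.965) and Erbb4 (0.954), and for Ntn1 they were Cfap77 (0.980), Nup188 (0.970) and Pitrm1 (0.966). The closest gene for each of the other members at this level was less alike for Unc5a (Rps18, 0.854) than for Dcc (Tmem131, 0.949). The libraries share their genotype groups, which enter each of these values.

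RefSeq starts with 250 bases of upstream sequence (GRCm38.p6) were available for 7 of the 10 genes, and their composition is given as a description. The window of Ntng2 had a GC content of 52.4%, 4 CpG and 3 matches to CANNTG, a motif that is its own reverse complement and was read on both strands. The windows of Ntn4, Ntng1, Neo1, Unc5a, Unc5b and Unc5c had GC contents of 62.4% to 83.2%, 23 to 45 CpG and 0 matches. Of all 32851 such windows, 66.22% held the motif, and the medians were 52.4% GC and 6 CpG. The windows of Ntn4, Ntng1, Ntng2 and Unc5c lie inside the gene spans of the GENCODE annotation, which has starts further upstream, so part of these windows may be transcribed. That of Ntng2 lies furthest inside, at 29248100 to 29248349 of a minus-strand gene that reaches upstream to 29253005. It therefore describes an internal start, unlike the outermost one.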

How the data were processed

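Total RNA of freshly isolated GNPs was sequenced as single-end reads. The authors deposited 1 table of gene-level TPM values, estimated by RSEM (version 1.2.15) from alignments by Bowtie (version 1.0.0) to the Ensembl mouse transcriptome (mm10, that is GRCm38). Control columns were read as WT libraries by their number. Each column sums to between 999999.14 and 1000000.79, so values were taken as not corrected for batch. TPM is a share of a fixed total, so large changes in abundant genes shift all others, and without read numbers no counting error was computed.

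Symbols, positions and exon overlaps came from the GENCODE annotation of GRCm38, and windows upstream of starts from RefSeq. Values were analysed as log2(TPM + 1), a pseudocount of 1, for the 17325 genes that reached 1 TPM in 4 or more libraries. All 14 libraries entered 1 model of genotype and batch (limma 3.58.1, R 4.3.3, lmFit and eBayes with trend). Two-sided p-values were adjusted after Benjamini and Hochberg across the genes tested. The study applied ComBat and a Kruskal-Wallis test. Here the batch term was removed with limma and the exact Kruskal-Wallis p was taken over 252252 arrangements. Ties, present in 1848 genes, were given the distribution of untied ranks. The fit was tested on simulated data.

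Alternatives changed the pseudocount, the filter on low values, the scaling, the libraries fitted, the batch term, the batch of Het 3, library weights, marker covariates, the replicate block and each library in turn. The text names all 10 genes, Chd7, those partner genes called, and for genes with a mean TPM of at least 5 the 3 most correlated genes. 6530402F18Rik and the single markers were named after their values had been seen. The genes, lists and tests were chosen with earlier results of these data known.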

Additional observations from a re-analysis of the deposited data

Results flagged for a closer look

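In 4 of the 30 groups tested (10 genes in 3 genotypes), 1 library lay far from the others of its group, where chance gives about 1 in 20 groups. Ntng2 was at 14.37 TPM in Het 5, above the other Het libraries. Unc5d was at 6.46 TPM in Hom 2, above the other Hom libraries, and Unc5a was at 4.79 TPM in the same library, below them. Ntn4 was at 64.51 TPM in Hom 3, above the other Hom libraries.

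For 3 of the 10 genes the change between Hom and WT differed between the sequencing batches by the limma interaction term at an unadjusted p under 0.05, and for none after adjustment over all genes. The change in batch 2 minus that in batch 1 was -0.87 for Unc5c (p 0.00134, adjusted p 0.127), -0.38 for Neo1 (p 0.0230, adjusted p 0.221) and 0.32 for Ntn4 (p 0.0372, adjusted p 0.263). In batch 1 the Purkinje cell and astroglial sums were also higher on average, and the endothelial sums lower, in WT than in Hom. Their part in these differences was not tested.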

How the results depend on the processing

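Of the genes named between Hom and WT, Ntng2 kept its direction in every alternative and its call in all but batch 2 alone (the Kruskal-Wallis test was read at its unadjusted threshold of 0.01, and its adjusted p was 0.0538). The count of the 10 genes called higher in Hom (2) was 1 with only the 2 genotypes compared, in batch 1 alone or with the replicate block, 0 in batch 2 alone, and 1 to 3 without 1 library. The count called lower (1) was 0 with only the 2 genotypes, in batch 1 alone or with the block, and 0 to 1 without 1 library. Against Het, the count higher (1) was 0 in batch 2 alone, and the count lower (0) was 0 to 1 without 1 library. The partner genes called lower (2) numbered 1 without the filter on low values, without the batch term, with the block or with marker covariates, 0 with only the 2 genotypes or in either batch alone, and 1 to 3 without 1 library. Those called higher (2) numbered 1 in batch 1 alone, with the block or by the Kruskal-Wallis test, 0 in batch 2 alone, and 1 to 2 without 1 library. Fits of 1 batch or of 2 genotypes hold fewer libraries, and the cause was not tested otherwise.

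Signs turned only for uncalled changes. Between Hom and WT, Ntng1 changed by 0.027 with the block, 0.0076 with array weights and 0.052 with marker covariates (-0.23 to 0.054 without 1 library). Neo1 changed by -0.019 in batch 2 alone. Unc5b changed by 0.025 without the batch term, 0.080 in batch 1 alone and 0.014 with array weights (-0.066 to 0.054 without 1 library). Chd7 changed by 0.41 in batch 1 alone and 0.019 with array weights (-0.22 to 0.087 without 1 library). Between Het and WT, Ntn4 changed by -0.037 and Unc5a by -0.051 in batch 1 alone, Dcc by -0.025 in batch 2 alone, Unc5a by -0.0016 with Het 3 in batch 2 (-0.0082 to 0.12 without 1 library), and Unc5b by 0.085 in batch 1 alone and 0.015 with array weights (-0.067 to 0.027 without 1 library).

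Libraries with the same replicate number deviated together only weakly, with correlations of -0.23 to 0.26 across genes, so the numbers were not taken to pair them. With the replicate block the changes between Hom and WT were 1.58 for Ntng2 (limma adjusted p 0.00276), 0.40 for Ntn1 (0.0591) and -0.70 for Unc5c (0.105). The Kruskal-Wallis test covers the 3 genotypes together and gives no value for Het against WT or Hom against Het. No scaling moved the median change of all genes by 0.1 or more.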
